A study of Mus musculus with 6 samples.

Results

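Wnt feedback genes encode inhibitors and dampers of Wnt/β-catenin signaling that the pathway itself can switch on. The 10 examined here, Axin2, Nkd1, Nkd2, Notum, Apcdd1, Dact1, Dact2, Dact3, Sp5 and Kremen1, were taken by name from a fixed list and matched by gene identifier, and they are 10 of the 41126 genes in the deposited table. The products act inside the cell or at its membrane, except Notum, which is a secreted enzyme.

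In the canonical pathway, a Wnt ligand binds a Frizzled receptor and an Lrp5 or Lrp6 co-receptor, Dishevelled is recruited, and the destruction complex of Axin, Apc and glycogen synthase kinase stops marking β-catenin for breakdown. β-catenin then enters the nucleus and acts with TCF/LEF factors on target genes. In dermal fibroblasts, the collagen-producing cells of the skin, sustained activity of this pathway is linked to fibrosis. Removal of exon 3 of Ctnnb1, the β-catenin gene, takes away the sites that mark the protein for breakdown, so the pathway is switched on downstream of the receptors and of the destruction complex.

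The question was which transcripts change when β-catenin is stabilized in fibroblasts in culture. RNA-seq covered 6 libraries of ventral dermal fibroblasts from mice at postnatal day 4 on a mixed CD1 and C57Bl6 background, grown in DMEM with 10% fetal bovine serum. The 3 Control libraries are labelled AdGFP and +/+, and the 3 gain of function (GOF) libraries AdCre and Ctnnb1Δex3/+. According to the methods, Control cells carried the same floxed allele and received Adenovirus-GFP, which differs from the +/+ of the labels. The groups therefore differed in virus as well as in β-catenin, and effects of the virus and of β-catenin cannot be told apart. The protocol in the labels gives an adenovirus carrying Cre, at an MOI of 366 to 500 for 6 h without serum, for every sample. According to the paper, RNA for sequencing was taken days after infection, so later effects are included. Cells of each animal were cultured separately and no sorting for recombined cells is described, so a GOF library can hold cells that kept exon 3. By the labels, a single animal gave both Control replicate 0 and GOF replicate 2, a second gave Control replicate 2 as well as GOF replicate 0, and Control replicate 1 and GOF replicate 1 came from 1 further animal each. Cultures of the same animal began with the same genotype. The +/+ label of Control replicates 0 and 2 is thus at odds with the Ctnnb1Δex3/+ label of their partners.

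Each library held 35980831 to 42834467 fragments assigned to genes. Fragments were tested with edgeR's quasi-likelihood test over 15462 genes, and a gene was called at a Benjamini-Hochberg adjusted p under 0.05 with a fold change over 2. FPKM (fragments scaled for transcript length and library size) is used for levels because it allows genes of different length to be compared. The 9 fibroblast markers were present in every library, with summed levels of 2808 to 3656 FPKM in Control and 2383 to 2764 FPKM in GOF. These sums combine markers that moved in opposite directions. Vim was at most 866 FPKM in Control and at least 1204 FPKM in GOF. Dcn was at least 982 FPKM in Control and at most 450 FPKM in GOF, and Col1a2 at least 585 and at most 540 FPKM. The groups overlapped for each of the other fibroblast markers. All 6 keratinocyte markers lay under 1 FPKM in every library, with sums of 0.407 to 0.493 in Control and 0.433 to 0.501 FPKM in GOF. Summed macrophage markers were at 2.51 to 3.44 FPKM in Control and 4.38 to 7.62 FPKM in GOF, with Ptprc, Adgre1 and Itgam under 1 FPKM throughout. Summed melanocyte markers were at 3.13 to 7.62 FPKM in Control and 0.928 to 2.28 FPKM in GOF, most of it Mlana. Endothelial markers summed to 2.39 to 2.56 FPKM in Control and 2.53 to 5.82 FPKM in GOF, with 3 of 5 under 1 FPKM in every library. Pericyte and smooth muscle markers summed to 41.1 to 42.7 and 27.2 to 59.7 FPKM, and Schwann cell markers to 0.751 to 4.24 and 0.823 to 3.79 FPKM, in Control and GOF. The skeletal muscle list, with Pax7 at 0, summed to 0.666 to 1.12 and 0.648 to 1.31 FPKM, and the adipocyte list, with Lep at 0, to 0.0142 to 0.0670 and 0.0289 to 0.0946 FPKM. The part that macrophage, melanocyte or endothelial RNA plays in the results below was not tested.

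Ctnnb1, the targeted gene, was at 262, 285 and 254 FPKM in Control replicates 0, 1 and 2 and at 246, 297 and 248 FPKM in GOF replicates 0, 1 and 2. The groups overlapped, and the log2 fold change was -0.050 (SE 0.15, edgeR adjusted p = 0.844). A value summed over the whole gene does not show whether exon 3 was removed, so it does not check the labels.

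Promoter sequence is shown for 3 members that stand at different ends of the comparison. Sp5 was at 0 in Control, Axin2 had the highest fold change among members present in Control, and Dact1 fell. Each run is the 250 bases before the RefSeq transcription start on GRCm38.p6, written 5′ to 3′ on the strand of the gene. Capitals mark CTTTGA or CTTTGAT, the core letters of sites that TCF/LEF factors bind, searched on both strands.
Sp5 promoter, chr2:70474673-70474922, plus strand: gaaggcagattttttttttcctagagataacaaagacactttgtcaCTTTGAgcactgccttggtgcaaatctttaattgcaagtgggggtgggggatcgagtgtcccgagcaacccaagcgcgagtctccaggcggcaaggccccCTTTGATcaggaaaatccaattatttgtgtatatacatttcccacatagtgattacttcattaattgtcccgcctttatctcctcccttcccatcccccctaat
Axin2 promoter, chr11:108920099-108920348, plus strand: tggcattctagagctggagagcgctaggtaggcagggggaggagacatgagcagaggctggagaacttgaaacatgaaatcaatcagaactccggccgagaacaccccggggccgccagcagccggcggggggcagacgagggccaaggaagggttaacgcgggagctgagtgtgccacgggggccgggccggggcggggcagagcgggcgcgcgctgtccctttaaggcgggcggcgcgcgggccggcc
Dact1 promoter, chr12:71309634-71309883, plus strand: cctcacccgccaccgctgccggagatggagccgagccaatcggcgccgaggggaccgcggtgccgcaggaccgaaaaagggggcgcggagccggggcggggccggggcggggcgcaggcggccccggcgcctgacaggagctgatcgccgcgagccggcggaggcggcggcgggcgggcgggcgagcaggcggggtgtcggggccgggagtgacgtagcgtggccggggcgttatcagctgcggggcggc
The table held promoters of 7 members, namely Sp5, Axin2, Dact1, Dact2, Dact3, Nkd1 and Nkd2. For Nkd1 and Dact2 the RefSeq start lies inside the annotated gene span given below. Their windows are therefore not the sequence before that span. In a window from 250 bases before to 50 bases after the start, CTTTGA matched 16.0% of all 32851 promoters and, of the 7, that of Sp5. The longer CTTTGAT, every match of which also counts for the shorter motif, matched 3.73% of all promoters and again Sp5 of the 7. Sp5 held CTTTGA at bases -204 to -199 and at -104 to -99 counted back from the start, the second within the longer form, and 1.73% of all promoters held 2 or more. A match is a description of the letters, and a window without one says only that these letters are not in it. The Sp5 stretch had 46.0% G and C, against 69.2% for Axin2 and 80.4% for Dact1, where the median over all promoters was 52.4% (quartiles 45.2% and 61.2%).

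Of the 10 feedback genes, 7 were higher in GOF, Dact1 was lower, and Dact2 and Dact3 were not called. Of all genes tested 12.3% were called, made up of 6.69% higher and 5.64% lower. All 10 genes were tested, but Notum, Dact2 and Sp5 did not reach the minimum count in every Control library, and Notum and Sp5 entered the test through their GOF libraries alone. Of the 7 that reached it in every Control library, 5 were called higher, 1 lower and 1 not called. The median log2 fold change of the 10 was 3.33, or 2.56 with Sp5 at its lower bound, beside -0.016 over all genes tested. FPKM did not overlap between the groups for 8 of the 10, against 39.5% of all genes tested. Notum and Sp5 are among the 8, and their separation follows in part from how they entered the test. Of the 7 that reached the minimum count in every Control library, all but Dact3 stood apart. With 3 libraries in each group an exact permutation test on FPKM cannot give a two-sided p below 0.1, the value it gave for each of these 8, and it gave 0.2 for Dact2 and Dact3. In bulk RNA, a change in the number of cells that make a transcript and a change in the amount per cell cannot be told apart.

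**Figure D1:**
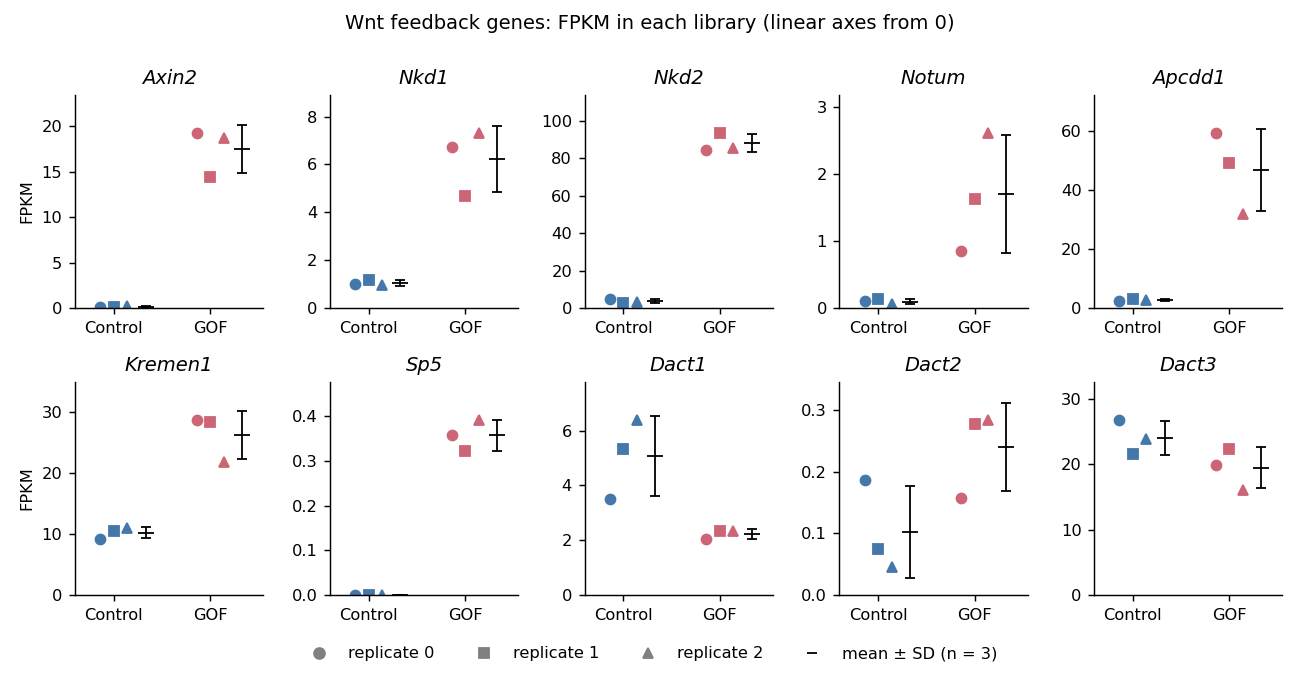
FPKM (linear vertical axes from 0, each gene on its own scale) of the 10 Wnt feedback genes in 3 Control (blue) and 3 GOF (red) libraries, with marker shape for the replicate number and the bar for mean ± SD (n = 3). Every GOF library lies above every Control library for Axin2, Nkd1, Nkd2, Notum, Apcdd1, Kremen1 and Sp5 and below for Dact1, whereas Dact2 and Dact3 overlap.

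Axin2 (ENSMUSG00000000142, chromosome 11, 108920349 to 108950783, plus strand, mm10) encodes a scaffold of the destruction complex and is a common readout of the pathway. It was at 0.144, 0.136 and 0.177 FPKM in Control replicates 0, 1 and 2, from 12, 21 and 25 fragments. In GOF replicates 0, 1 and 2 it was at 19.2, 14.4 and 18.7 FPKM, from 2882, 1962 and 2756 fragments. The gene was thus close to silent in every Control library and well expressed in every GOF library. The log2 fold change was 6.98 (SE 0.26, 95% interval 6.39 to 7.58, edgeR adjusted p = 4.95e-05), which ranked 13 among the 15462 genes tested. The FPKM ratio of GOF to Control was 108 in the animal that gave Control replicate 2 and GOF replicate 0, and 130 in the animal of Control replicate 0 and GOF replicate 2. These ratios rest on few Control fragments, 25 and 12, so their exact size is loose. Ratios within these 2 animals are given below in the same order. Axin1, the constitutive paralog of the same scaffold, was at 10.4 ± 0.902 FPKM in Control and 11.3 ± 0.233 FPKM in GOF (SD, n = 3 in each group; log2 fold change 0.056, edgeR adjusted p = 0.766). In Control the mean of Axin2 was below that of Axin1, and in GOF it was above it with no overlap between the libraries of the 2 genes.

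Nkd1 and Nkd2 encode the Naked cuticle proteins, which bind Dishevelled and lower the signal it passes on. Nkd2 (ENSMUSG00000021567, chromosome 13, 73818534 to 73847631, minus strand) was at 4.72, 2.81 and 3.30 FPKM in Control replicates 0, 1 and 2. It stood at 84.7, 93.5 and 85.7 FPKM in GOF replicates 0, 1 and 2, the highest level of any of the 10 genes. Its GOF libraries lay close together, the highest being 1.10 times the lowest, while Control replicate 0 stood above the other Control libraries. The log2 fold change was 4.66 (SE 0.20, 95% interval 4.19 to 5.14, edgeR adjusted p = 5.45e-05). Within the shared animals the ratio was 25.6 and 18.2.

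Nkd1 (ENSMUSG00000031661, chromosome 8, 88521354 to 88594884, plus strand) was at 0.998, 1.17 and 0.973 FPKM in Control and at 6.74, 4.69 and 7.31 FPKM in GOF, again in replicate order. The groups stood apart, with GOF replicate 1 the lowest of its group. The rise was smaller than that of its paralog, at a log2 fold change of 2.54 (SE 0.22, 95% interval 2.04 to 3.04, edgeR adjusted p = 4.52e-04). The log2 ratio of Nkd2 to Nkd1, on FPKM + 0.1, was 2.13, 1.20 and 1.67 in Control and 3.63, 4.29 and 3.53 in GOF. The ratio was higher in every GOF library, by 2.15 on the log2 scale (exact two-sided permutation p = 0.1, adjusted p = 0.2 over the 2 paralog ratios compared, where 0.1 is the smallest p possible).

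The Dact proteins, or Dapper proteins, also bind Dishevelled and can lower or shape Wnt signaling according to the setting. Unlike Axin2 and the Nkd genes, these 3 did not rise as a family. Dact1 (ENSMUSG00000044548, chromosome 12, 71309884 to 71320107, plus strand) was at 3.50, 5.35 and 6.38 FPKM in Control and at 2.03, 2.34 and 2.35 FPKM in GOF. All GOF libraries lay below all Control libraries, and the Control libraries were the more spread. The log2 fold change was -1.18 (SE 0.20, 95% interval -1.66 to -0.71, edgeR adjusted p = 0.00702). Within the animals the ratio of GOF to Control was 0.318 and 0.671. The call was lost with limma on log2(FPKM + 1), where the log2 difference was -0.88 (adjusted p = 0.0206), while its adjusted p over the alternatives ran from 5.44e-06 to 0.0391.

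Dact3 (ENSMUSG00000078794, chromosome 7, 16875317 to 16887462, plus strand) was the most abundant of the 10 genes in Control. It was at 26.7, 21.5 and 23.8 FPKM in Control and at 19.9, 22.3 and 16.1 FPKM in GOF. In FPKM, GOF replicate 1 lay within the Control range. In fragments the groups stood apart, at 1774, 1664 and 1661 in Control and 1397, 1323 and 1348 in GOF. The log2 fold change of -0.39 (SE 0.13, 95% interval -0.69 to -0.076) had an edgeR adjusted p of 0.0794. Over the alternatives the adjusted p ran from 0.0443, in edgeR with library totals, to 0.236. The interval stays short of a 2-fold decrease. The log2 ratio of Dact3 to Dact1 was 2.26 ± 0.557 in Control and 3.05 ± 0.283 in GOF (SD, n = 3 each). The groups overlapped, and the difference of 0.80 did not pass (exact two-sided permutation p = 0.2, and 0.2 when adjusted over the 2 ratios).

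Dact2 (ENSMUSG00000048826, chromosome 17, 14195052 to 14204304, minus strand) was scarce in every library. It was at 0.187, 0.0752 and 0.0460 FPKM in Control, from 18, 9 and 5 fragments, and at 0.157, 0.278 and 0.284 FPKM in GOF, from 17, 26 and 34 fragments. Control replicate 0 lay above GOF replicate 0, so the groups overlapped. The log2 fold change was 1.17 with a wide interval of -0.093 to 2.44 (SE 0.54, edgeR adjusted p = 0.171). Without Control replicate 0 it was 1.88 and was called (edgeR adjusted p = 0.0402), whereas its adjusted p was up to 0.385 with other libraries left out. At this depth neither a lack of change nor a several-fold rise of Dact2 could be told.

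Apcdd1 (ENSMUSG00000071847, chromosome 18, 62922231 to 62961179, plus strand) encodes a membrane glycoprotein that binds Wnt ligands and their co-receptor and is active in skin and hair follicles. It was at 2.29, 2.93 and 2.66 FPKM in Control and at 59.1, 49.0 and 31.7 FPKM in GOF. The GOF libraries differed among themselves by 1.86 times, but the lowest still stood far above Control. Its log2 fold change was 4.12 (SE 0.25, 95% interval 3.53 to 4.71, edgeR adjusted p = 1.70e-04), with a ratio of 22.2 and 13.9 within the animals.

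Kremen1 (ENSMUSG00000020393, chromosome 11, 5191552 to 5261558, minus strand) encodes a membrane receptor for Dickkopf inhibitors that helps to remove Lrp6 from the cell surface. It was at 9.22, 10.6 and 10.9 FPKM in Control and at 28.7, 28.3 and 21.8 FPKM in GOF. The gene was already well expressed in Control, and its rise was the smallest of the 7 called. Its log2 fold change was 1.32 (SE 0.14, edgeR adjusted p = 9.45e-04), and the ratio was 2.62 and 2.36 within the animals. Its paralog Kremen2 was listed at 0.0136 FPKM in Control replicate 2 and at 0 in the other libraries, and it was not tested.

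Notum (ENSMUSG00000042988, chromosome 11, 120653788 to 120661175, minus strand) encodes a secreted carboxylesterase that removes the lipid Wnt ligands need to bind Frizzled. It was at 0.106, 0.132 and 0.0549 FPKM in Control, from 5, 8 and 3 fragments. In GOF it was at 0.851, 1.63 and 2.61 FPKM, from 54, 102 and 190 fragments. This gene had the widest spread among GOF libraries, the highest being 3.06 times the lowest. Fitted on fragments, the log2 fold change was 4.35 (SE 0.60, 95% interval 2.96 to 5.74, edgeR adjusted p = 0.00280). Within the animals the ratio was 15.5 and 24.6, both resting on few Control fragments.

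Sp5 (ENSMUSG00000075304, chromosome 2, 70474923 to 70477729, plus strand) encodes a zinc finger transcription factor of the Sp family that Wnt signaling induces and that in turn damps other Wnt targets. No fragment was assigned to it in any Control library, which allows up to 3 fragments per library. In GOF it was at 0.357, 0.323 and 0.391 FPKM, from 18, 14 and 23 fragments. It was present at a low and even level in all GOF libraries. Against 3 fragments per Control library the GOF mean was at least 5.99-fold higher. The edgeR adjusted p of 0.00370 belongs to the fit on the counts themselves and not to this bound. With limma on log2(FPKM + 1) the log2 difference was 0.44 (adjusted p = 0.00201, where the alternatives ran from 2.78e-05 to 0.0250), short of a 2-fold change on that scale. The bound of 3 fragments covers counting error in Control only, and takes the GOF counts as they stand.

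**Figure D2:**
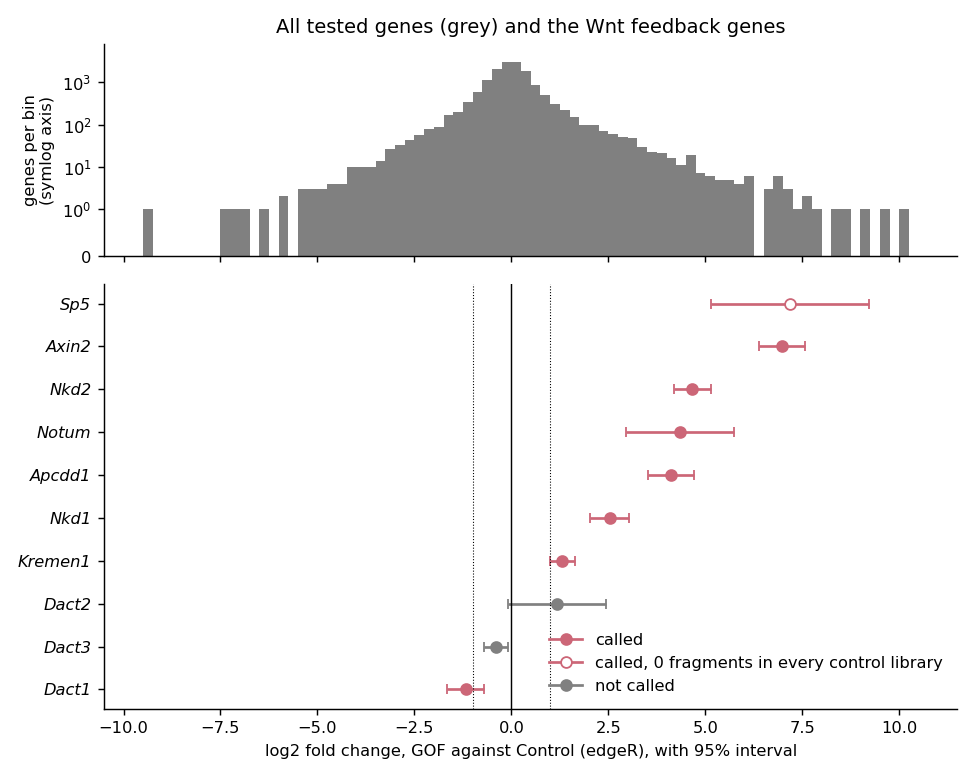
Log2 fold change of GOF against Control from edgeR. The upper panel counts all 15462 tested genes per bin on a symlog vertical axis, and the lower panel shows the 10 feedback genes with 95% intervals and dotted lines at a 2-fold change. Apart from Sp5, the values run from -1.18 for Dact1 to 6.98 for Axin2. The open point of Sp5, drawn at 7.18, comes from 0 fragments in every Control library and is no bound.

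The order of the levels differed between the groups. By mean FPKM, Control ran Dact3, Kremen1, Dact1, Nkd2, Apcdd1, Nkd1, Axin2, Dact2, Notum and Sp5, from 24.0 FPKM down to 0. Neighbours whose Control libraries overlapped were Dact1 with Nkd2, Nkd2 with Apcdd1, Axin2 with Dact2, and Dact2 with Notum. GOF ran Nkd2, Apcdd1, Kremen1, Dact3, Axin2, Nkd1, Dact1, Notum, Sp5 and Dact2, from 88.0 down to 0.240 FPKM. There the overlapping neighbours were Kremen1 with Dact3, Dact3 with Axin2, and Dact1 with Notum.

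Summed over the 10 genes, FPKM was 47.9, 44.7 and 48.4 in Control and 222, 217 and 187 in GOF. Nkd2 made up 9.86%, 6.29% and 6.83% of the sum in Control and 38.2%, 43.1% and 45.8% in GOF. Dact3 made up 55.8%, 48.1% and 49.3% in Control and 8.97%, 10.3% and 8.61% in GOF, although its own level was not called as changed. The summed transcripts thus passed from a set led by Dact3 and Kremen1 to one led by Nkd2 and Apcdd1.

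**Figure D3:**
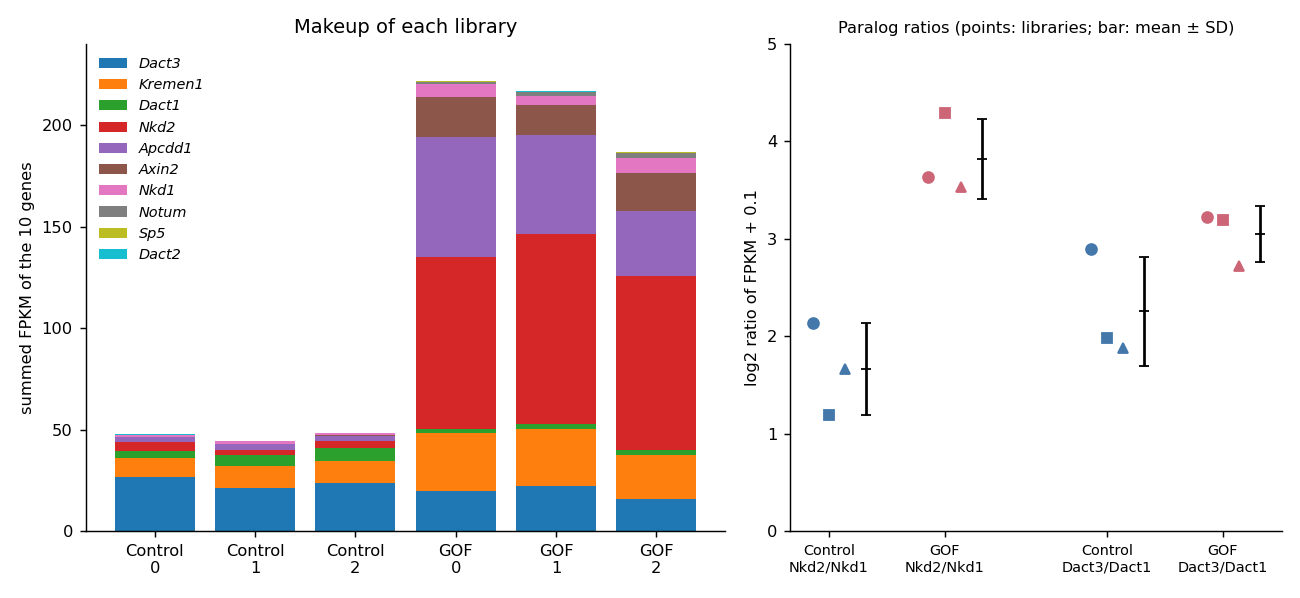
Left, FPKM of the 10 genes stacked for each library (linear axis from 0), with totals of 44.7 to 48.4 in Control and 187 to 222 in GOF. Right, log2 ratio of the paralog pairs on FPKM + 0.1, with points for libraries (shape for the replicate number) and bars for mean ± SD (n = 3); Nkd2 to Nkd1 stands apart between groups, and Dact3 to Dact1 overlaps.

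The 3 GOF libraries had no common order across the genes. GOF replicate 2 held the highest Nkd1, Notum, Sp5, Dact1 and Dact2 and the lowest Apcdd1, Kremen1 and Dact3. GOF replicate 1 held the highest Nkd2 and Dact3 and the lowest Axin2, Nkd1 and Sp5. Relative to the mean, the SD among GOF libraries ran from 5.47% for Nkd2 to 51.9% for Notum. Replicates of a group have no meaning by number, and these are descriptions of single libraries.

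**Figure D4:**
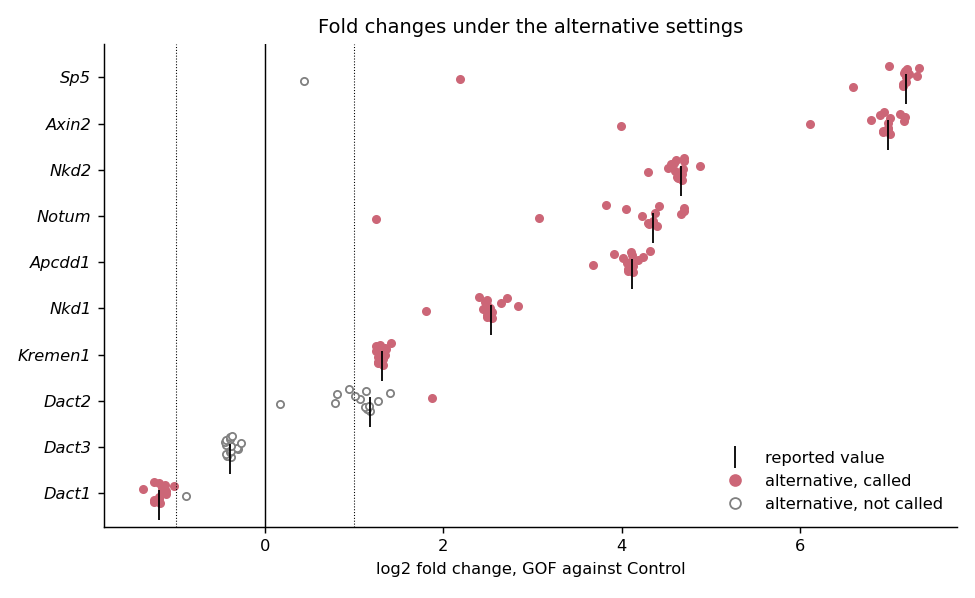
Log2 difference of GOF against Control for each feedback gene under the alternative settings (points, filled where called) and as reported (black ticks), with dotted lines at a 2-fold change. Every point of a gene lies on the same side of 0, and the lowest points of Axin2, Notum, Sp5 and Dact2 come from limma on log2(FPKM + 1), at 3.99, 1.24, 0.44 and 0.17.

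Several of the genes share their span with another annotated gene. The library kit was stranded, but whether the counting used the strand is not given in the sources used here, so reads of a gene and of a partner on the opposite strand cannot be told apart. On the opposite strand, 4930474H06Rik overlaps the end of Dact1 and runs past it, with 134, 245 and 253 fragments in Control and 70, 60 and 94 in GOF. Its log2 fold change was -1.53 (SE 0.27, edgeR adjusted p = 0.00772), in the direction of Dact1. Gm8062, a processed pseudogene on the opposite strand within Nkd2, held 2, 1 and 2 fragments in Control and 29, 19 and 17 in GOF (log2 fold change 3.55, SE 0.49, edgeR adjusted p = 0.00279). These are small beside the 16344 to 17493 fragments of Nkd2 in GOF. Notumos, antisense to Notum, held 1 fragment in each Control library and 2, 7 and 12 in GOF, and Gm11670, antisense to Axin2, held 0, 0 and 1 in Control and 4, 7 and 3 in GOF. Neither was abundant enough to be tested. Myadml2os, which overlaps Notum, and Gm25142, which lies within Kremen1, had 0 fragments in every library. Gm45496 within Nkd1 and AC151292.1 at Dact2 are annotated and were not analysed here.

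The core of the pathway was read from a list of 39 genes for ligand release, receptors, Dishevelled, the destruction complex and nuclear partners. Of the 37 tested, 6 were called higher, 5 lower and 26 not called, and their median log2 fold change was -0.11. Where 3 libraries had to reach 1 FPKM, 32 could be tested, with 3 called higher and 5 lower. Lef1, Rnf43 and Fzd10, called higher in the main fit, did not reach that level. Over all genes tested, 6.69% were called higher and 5.64% lower. Tcf7 and Lef1, which encode the DNA-binding partners of β-catenin, rose from 0.101 to 2.56 FPKM (log2 fold change 4.61, edgeR adjusted p = 5.49e-04) and from 0.0640 to 0.412 FPKM (log2 fold change 2.76, edgeR adjusted p = 0.00118). Rnf43, whose product is a ubiquitin ligase that clears Frizzled from the cell surface, rose from 0.0294 to 0.553 FPKM (log2 fold change 4.29, edgeR adjusted p = 0.00178). Rnf43 was scarce in Control, at 0.0310, 0.0498 and 0.00730 FPKM in replicates 0, 1 and 2. With limma on log2(FPKM + 1) the calls of Lef1 (0.41), Rnf43 (0.59) and Pygo1 (-0.75, described below) were lost, each log2 difference being short of a 2-fold change on that scale. In both groups Tcf7, Lef1 and Rnf43 stayed far below Nkd2, Apcdd1 or Kremen1.

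Frizzled receptor genes moved in both directions, with 3 of the 9 tested higher and 3 lower, beside 6.69% and 5.64% of all genes tested. Fzd1 rose from 17.6 ± 5.54 FPKM in Control to 46.4 ± 3.65 FPKM in GOF (SD, n = 3 in each group; log2 fold change 1.37, edgeR adjusted p = 0.00532). Fzd6 rose from 4.96 to 10.0 FPKM on average, a log2 fold change of 1.01 (edgeR adjusted p = 0.00899). Fzd10, the third that was higher and named after its values were seen, was at 0.0704 ± 0.0373 FPKM in Control and at an uneven 1.08 ± 1.18 FPKM in GOF (SD, n = 3 in each group; edgeR adjusted p = 0.0305). Fzd4 fell the most, from 5.70 ± 1.28 FPKM in Control to 0.747 ± 0.0495 FPKM in GOF (SD, n = 3 in each group; log2 fold change -2.93, edgeR adjusted p = 2.52e-04). Fzd8 fell from 6.93 to 2.57 FPKM (log2 fold change -1.44, edgeR adjusted p = 0.00345), and Fzd5 from 4.58 to 2.27 FPKM (log2 fold change -1.02, edgeR adjusted p = 0.0124). The co-receptor gene Lrp5 and Pygo1, for a nuclear partner of β-catenin, also fell, by 1.07 (edgeR adjusted p = 0.0184) and by 1.36 (edgeR adjusted p = 0.00279) on the log2 scale. The calls of Lrp5, Fzd5 and Fzd6 were lost under 7, 4 and 5 of 15 alternatives. When the fit took the animal as its replicate block, since 2 animals gave a culture to both groups, Fzd5 changed by -0.79 on the log2 scale (edgeR adjusted p = 0.0168, where its alternatives ran from 1.12e-04 to 0.0484) and was not called. For Lrp5 the log2 fold change ran from -1.30 to -0.71 and the adjusted p from 4.27e-04 to 0.0643 over the alternatives, so some losses came from the fold and others from the p. Fzd6 was lost on the fold, which was as low as 0.82. The 8 listed genes of the destruction complex and its ubiquitin ligase, unlike Axin2, had log2 fold changes between -0.51 and 0.48.

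The protein-coding genes whose pattern was nearest to that of Axin2 over the 6 libraries were Fxyd6, Prr9 and Igsf11. Nearness was the Euclidean distance of log2(FPKM + 0.1), with each gene centred on its own mean, among 13510 genes, and it was 1.04, 1.07 and 1.09. Fxyd6, for a small regulator of the sodium pump, went from 1.15 ± 0.329 to 79.0 ± 21.0 FPKM (SD, n = 3 each). Prr9 went from 0.0681 ± 0.0339 to 9.33 ± 2.88 FPKM, and Igsf11 from 0.229 ± 0.0700 to 23.4 ± 6.85 FPKM (SD, n = 3 each). All of them differ from Axin2 in having their highest level in GOF replicate 1, where Axin2 was lowest. The measure rests mostly on the step between the groups.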

How the data were processed

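Dermal fibroblast RNA was sequenced in 3 Control and 3 GOF libraries, with groups taken from the sample labels. The submitters' processing notes name TopHat, Cuffdiff and mm10, and their versions are not given in the sources used here. The estimated counts are fragments that Cuffdiff assigned per gene and library and that the authors left unscaled. In the FPKM values, also deposited, Cuffdiff had divided fragments by length and put the libraries on a common scale. Another 2 columns of scaled fragments per library and the lncRNA table were not used.

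Of 41126 genes, 32 with a failed estimate were left out, 23 of them for too many fragments. Identifiers were matched to GENCODE M21 for 97.9% of genes. Counts, 4.95% of them not whole, were rounded and tested in R 4.3.3 with edgeR 4.0.16 (TMM factors 0.964 to 1.05, filterByExpr with a minimum count of 10, quasi-likelihood test, Benjamini-Hochberg adjustment over all 15462 genes tested). A gene was called with a fold change over 2 at an adjusted p under 0.05. Fold changes against 0 were bounded with 3 fragments per library. Exact permutation tests used scipy 1.17.1, and paralog ratios a pseudocount of 0.1. Promoters were those of RefSeq. Scripts were tested on simulated data.

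Alternatives were DESeq2 1.42.0, library totals, upper-quartile normalization, no filter, FPKM of at least 1 in 3 libraries, limma 3.58.1 on log2(FPKM + 1) and log2(FPKM + 0.1), fits with a replicate block (the label number, or else the animal), and fits that drop 1 library at a time. Deviations from the group means correlated at 0.41 and 0.46 between libraries of the same animal. Named genes were the 10 members, Ctnnb1, up to 5 called core pathway genes per direction with the smallest adjusted p, annotated genes that overlap a member, and the 3 genes nearest to Axin2. Axin1 and Kremen2, paralogs of members, were added after their values were seen. The members and lists were chosen with earlier results of these data known. P-values measure the spread between these cultures, of which 2 pairs share an animal.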

Additional observations from a re-analysis of the deposited data

How the results depend on the processing

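No feedback gene changed direction under any alternative, and 144 of the 147 values of single feedback genes kept both direction and side of the thresholds. The exceptions were Dact1 and Sp5, lost with limma on log2(FPKM + 1), where 6 of the 10 were called, and Dact2, called without Control replicate 0. Where 3 libraries had to reach 1 FPKM, 7 of the 10 could be tested and 6 were called. The median log2 fold change of the 10, 3.33 as reported, was 2.54 under that filter, 1.26 with limma on log2(FPKM + 1) and 2.32 with limma on log2(FPKM + 0.1). A larger pseudocount by its construction lowers the fold of scarce genes. Of the core pathway genes, 11 were called as reported, 8 where 3 libraries had to reach 1 FPKM, and 4 with limma on log2(FPKM + 1). Leaving out one library at a time gave 8 to 9 feedback genes and 8 to 10 core pathway genes called, a median of 3.11 to 3.44, and differences of 1.92 to 2.39 for the Nkd2 to Nkd1 ratio and 0.61 to 1.12 for the Dact3 to Dact1 ratio. Ctnnb1, at -0.050 as reported, ran from -0.16 to 0.023 when one library was left out, and turned above 0 only without GOF replicate 0 (0.023, edgeR adjusted p = 0.947, with 0.536 to 0.981 over its alternatives), where the cause was not tested. Same-numbered libraries had correlations of deviations of -0.41, 0.054 and -0.44, so the label numbers do not pair them. With a replicate block by label number, as with one by animal, 8 feedback genes were called, and 9 and 10 core pathway genes. In the fit by animal, Control replicate 1 and GOF replicate 1 were each alone in their block. The contrast of that fit therefore rests on the animals that gave both groups. It leaves little to estimate the spread of a single gene, so its calls lean on spread shared across genes. Depth limits Dact2, Notum and Sp5, each with under 20 fragments in every Control library.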
